A study of Mus musculus with 6 samples.

Results

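E2F transcription factors, the retinoblastoma family and the G1 cyclins form the switch that lets a cell leave G1 and replicate its DNA. The data here are transcript counts of 10 genes of this switch, chosen by symbol from the 46517 gene rows of the count tables. They are the activator E2Fs *E2f1* and *E2f2*, the atypical E2Fs *E2f7* and *E2f8*, the pocket proteins *Rb1* and *Rbl1*, the D cyclins *Ccnd1* and *Ccnd2* and the E cyclins *Ccne1* and *Ccne2*. All 10 were found, and all 10 passed the filter on low counts. The samples were primary RTECs (renal tubule epithelial cells) grown from kidneys of wild-type FvB mice aged 4 to 6 weeks, and RNA sequencing measured poly(A) transcripts of 3 CTL and 3 TGF-β1 cultures. All cultures were grown with serum, EGF and insulin supplement, and serum was withdrawn for 24 h before TGF-β1 at 50 ng/ml was given for 24 h. CTL therefore means serum-free medium without added TGF-β1. No genotype, allele or other agent separated the groups. The labels do not say whether the cultures came from separate animals, so p-values measure the spread between these cultures, which may be technical in part. Y-linked transcripts, given below, set replicate 2 of both groups apart, so the cultures did not all share the same source of cells. They do not show whether replicates 1 and 3 came from separate animals.

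In G1, D cyclins with Cdk4 or Cdk6 and then E cyclins with Cdk2 phosphorylate Rb1 and its relative Rbl1 (p107). The phosphorylated pocket proteins release activator E2Fs, which switch on genes of DNA synthesis together with *Ccne1*, *Ccne2*, *E2f1*, *Rbl1*, *E2f7* and *E2f8* themselves. E2f7 and E2f8 bind the same sites without a DP partner or a pocket protein and repress these genes, which closes the loop. TGF-β is a textbook brake on G1 in epithelial cells, where it raises the Cdk4/6 inhibitor Cdkn2b, and in the kidney it is known as a driver of fibrosis.

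Counts on genes summed to between 28313080 and 34183497 per library, and a floor of 3 counts lay between 0.0878 and 0.106 CPM (counts scaled to a fixed library total). This floor covers counting error only, since reads carried no molecular identifiers. Replicate 2 of both groups stood apart. Y-linked *Ddx3y* was at 71.0 and 64.5 TMM-scaled CPM in CTL and TGF-β1 replicate 2 and at most 0.138 in the other 4 libraries. *Xist*, a transcript of female cells, was at 237 and 207 in replicate 2 and at 516 to 633 elsewhere. The paper describes the mice as male, and the labels give no sex. The epithelial marker *Epcam* was at 63.2 and 53.4 in replicate 2 and at 163 to 288 elsewhere, while *Col1a1*, a collagen of fibroblasts, was at 1464 and 1833 against 506 to 809. *Cdh1* (81.4 and 75.0 against 207 to 339), *Krt8* and *Krt18* were likewise lowest in replicate 2 of each group. *Pdgfrb*, *Dcn* (12.3 and 7.06 against 1.04 to 5.54) and *Col3a1* (410 and 444 against 131 to 219) were likewise highest there. Not every marker of these lists shared this pattern. The matrix gene *Postn* was lowest in replicate 2 of each group, at 331 and 404 against 455 to 934, and *Pdgfra* was not raised. In CTL replicate 2 *Pax8* was at 215 against 212 and 192 in the other CTL cultures, and *Cdh16* was at 250 against 302 and 231. In TGF-β1 replicate 2, however, each was the lowest of its group. There *Pax8* was at 113 against 131 and 118, and *Cdh16* at 69.6 against 100 and 106. Of the tubule epithelium markers, *Cdh16* and *Pax8* were present in every culture, while the differentiated proximal tubule transporters *Slc34a1*, *Slc5a2* and *Slc22a6* were at or below 0.344. Same-numbered cultures deviated from their group means together, so values with the replicate number as a block are given where they change a call. Results are also given without both replicate 2 cultures. In bulk RNA, fewer cells of a type and less RNA per cell cannot be told apart.

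TGF-β1 was followed by lower transcripts of *Ccnd1*, *Ccne1* and *E2f7*, with no member called higher. The fall was deepest for *E2f7*, to 34.1% of the CTL mean, then for *Ccnd1*, to 49.3%, and for *Ccne1*, to 62.0%. Across the 15862 genes tested by edgeR's quasi-likelihood test with Benjamini-Hochberg adjustment and a threshold of 0.05, 6.69% were called lower and 5.00% higher. When libraries were scaled by total alone, 1467 genes were lower and 507 higher, against 1061 and 793 with TMM scaling, and 3 members were called lower in both. With the replicate block, 6 of the 10 members were lower and 0 higher, against 19.1% and 15.1% of all genes tested. The 3 added by the block were *Rbl1*, *Ccnd2* and *Ccne2*, and they did not pass with the block once both replicate 1 cultures were left out. The CTL and TGF-β1 cultures did not overlap for 5 members that were lower with TGF-β1 and for 1, *E2f8*, that was higher, against 18.0% and 17.2% of all genes tested. The median log2 fold change was -0.33 over the 10 members and -0.0028 over all genes tested. No member reached an unadjusted p under 0.05 in the higher direction in edgeR, DESeq2 or limma-voom, although 1 did once counts were down-sampled to the smallest library.

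**Figure D1:**
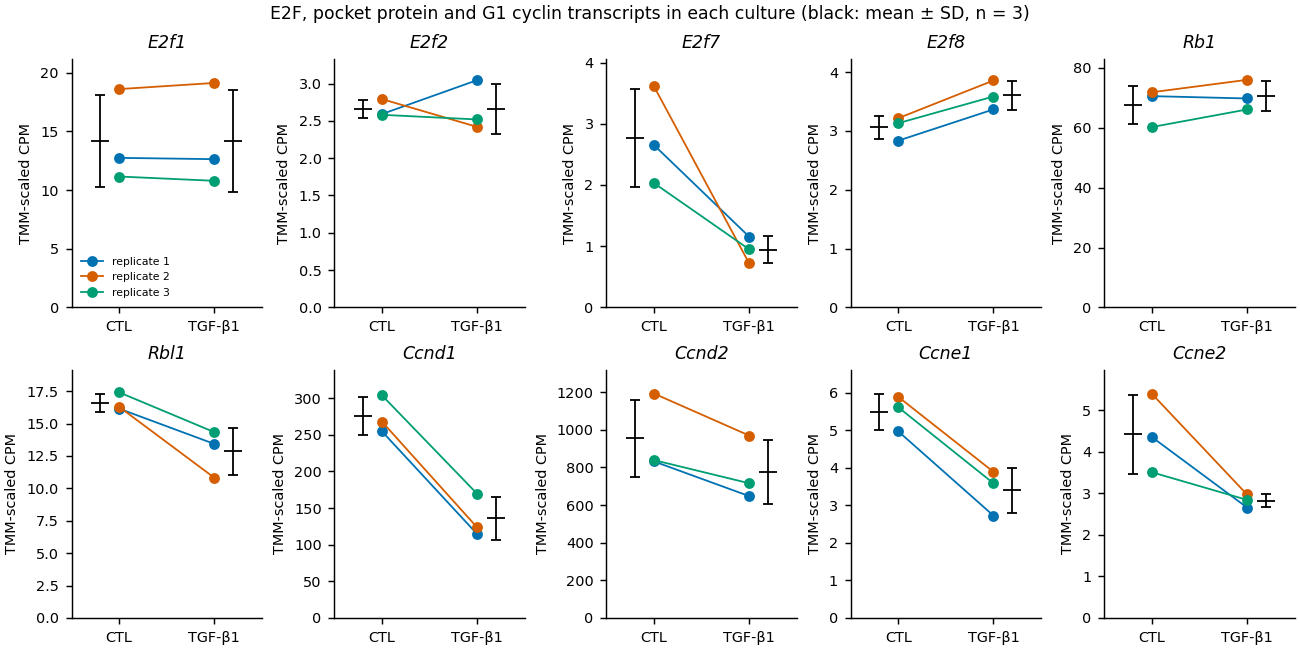
TMM-scaled CPM of each of the 10 genes (y axis, each panel from 0) in CTL and TGF-β1 cultures (x axis), with lines joining cultures of the same replicate number and black marks for the mean ± SD of 3 cultures. *E2f7*, *Rbl1*, *Ccnd1*, *Ccne1* and *Ccne2* were lower in every TGF-β1 culture than in every CTL culture, *E2f8* was higher in every one, and *E2f1*, *E2f2*, *Rb1* and *Ccnd2* overlapped.

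**Figure D2:**
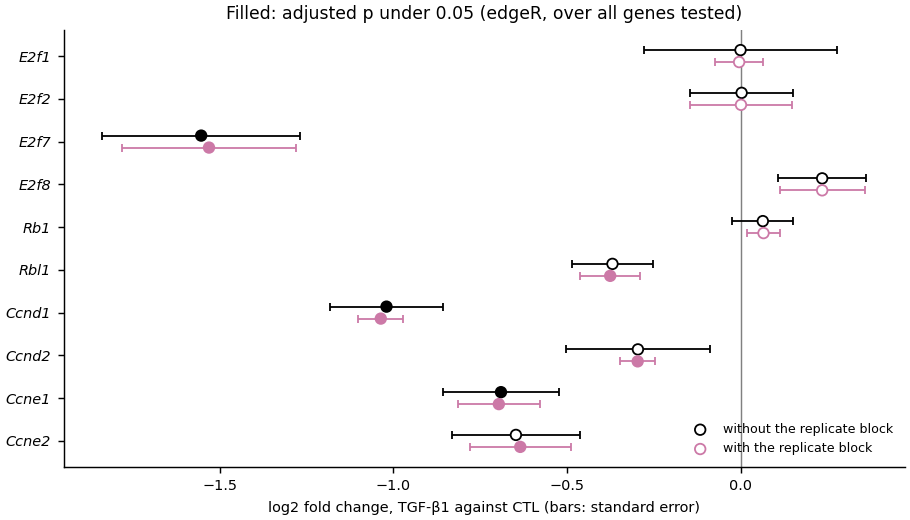
Log2 fold change of TGF-β1 against CTL (x axis) for each gene (y axis), with standard error bars, in edgeR without (black) and with (pink) the replicate block, filled where the adjusted p is under 0.05. The black point of *E2f7* lies at -1.55 and that of *Ccnd1* at -1.02, and the bars of *Ccnd2* shrink from an SE of 0.21 to 0.05 with the block.

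The activator E2Fs bind DNA with a DP partner and recruit the machinery that transcribes S-phase genes. *E2f1* (ENSMUSG00000027490.16) is a minus-strand gene at chromosome 2, 154559407 to 154569892, in GRCm38. Its TMM-scaled CPM were 12.7, 18.6 and 11.1 in CTL replicates 1, 2 and 3 and 12.6, 19.1 and 10.8 in TGF-β1 replicates 1, 2 and 3. Replicate 2 was high in both groups, and the groups overlapped throughout. The log2 fold change of *E2f1* was -0.00014 (standard error, SE, 0.28, edgeR adjusted p = 1.00). The log2 ratios of TGF-β1 to CTL within the pairs were -0.013, 0.040 and -0.048, and the block brought the SE to 0.07 with an adjusted p of 0.973. The spread of *E2f1* between cultures followed the replicate number. In replicate 2 *Epcam*, *Cdh1*, *Krt8* and *Krt18* were low and *Col1a1*, *Col3a1*, *Pdgfrb* and *Dcn* high. *Postn* was also low there. *Pax8* was not low in CTL replicate 2 but was the lowest of its group in TGF-β1 replicate 2. The part of cell makeup in the spread was not tested. Without both replicate 2 cultures the log2 fold change was -0.03.

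*E2f2* (ENSMUSG00000018983.9, chromosome 4, 136172394 to 136196057, plus strand) encodes an activator closely related to E2f1. Its values were 2.59, 2.79 and 2.58 CPM in CTL and 3.05, 2.42 and 2.52 CPM in TGF-β1, from 74 to 95 counts per library. The highest and the lowest of the 6 were both TGF-β1 cultures. The change on the log2 scale was 0.003 (SE 0.15, edgeR adjusted p = 0.993), and the 3 pairs differed in sign, at 0.23, -0.21 and -0.035.

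Of the atypical E2Fs, one was called lower and the other was not called. *E2f7* (ENSMUSG00000020185.15, chromosome 10, 110745439 to 110787384, plus strand) and *E2f8* (ENSMUSG00000046179.16, chromosome 7, 48866429 to 48881596, minus strand) encode repressors with paired DNA-binding domains that share many targets. Their promoters, with that of *Rbl1*, are shown because these 3 genes of the E2F loop are compared here. Each sequence is the 250 bases before the RefSeq start site in GRCm38.p6, read 5′ to 3′ on the gene's strand, and capitals mark E2F letters.
E2f7, chr10:110745189-110745438, plus strand: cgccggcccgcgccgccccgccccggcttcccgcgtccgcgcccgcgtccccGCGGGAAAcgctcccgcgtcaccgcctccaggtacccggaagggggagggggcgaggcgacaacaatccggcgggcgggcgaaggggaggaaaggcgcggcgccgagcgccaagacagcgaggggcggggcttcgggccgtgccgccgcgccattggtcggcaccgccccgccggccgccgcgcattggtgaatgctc
E2f8, chr7:48881597-48881846, minus strand: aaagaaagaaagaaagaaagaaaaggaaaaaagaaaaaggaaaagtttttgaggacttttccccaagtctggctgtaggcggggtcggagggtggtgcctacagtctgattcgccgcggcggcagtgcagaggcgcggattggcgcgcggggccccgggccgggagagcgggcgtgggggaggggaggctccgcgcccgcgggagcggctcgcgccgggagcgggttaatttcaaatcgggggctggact
Rbl1, chr2:157204535-157204784, minus strand: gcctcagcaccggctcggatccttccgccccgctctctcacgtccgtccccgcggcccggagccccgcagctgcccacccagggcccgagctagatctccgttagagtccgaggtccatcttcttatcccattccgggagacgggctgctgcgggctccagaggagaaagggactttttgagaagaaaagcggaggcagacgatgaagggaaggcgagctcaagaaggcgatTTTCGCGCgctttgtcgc
The letters searched on both strands were TTTCGCGC, TTTGGCGC, TTTCCCGC and TTCCCGCC for E2F, of which the last pair can overlap each other, TTTGAA and TTCGAA for the cell cycle homology region of G2/M promoters, and CCAAT. Of 32851 mouse promoter windows of this length, 2.92% held E2F letters, 17.1% held a cell cycle homology word and 33.8% held CCAAT. The *E2f7* window held TTTCCCGC on the reverse strand, beginning 198 bases before the start site, with CCAAT on the reverse strand at 46 and 14 bases. That of *Rbl1* held TTTCGCGC 18 bases before the start site and neither of the other motifs. The *E2f8* window held no E2F letters, a reverse TTTGAA at 20 bases and a reverse CCAAT at 112 bases. Windows near the annotated start were found for 5 members, and those of *E2f2* and *Ccne1* held no E2F letters. Only exact words were marked. The *E2f8* window held attggcgc, which differs from TTTGGCGC in its first base, and that of *E2f7* held an unmarked cttcccgc, which differs from TTTCCCGC likewise. Matches, and the lack of them, are descriptions of letters and say nothing of binding in these cells.

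*E2f7* stood at 2.65, 3.61 and 2.03 CPM in CTL replicates 1, 2 and 3 and at 1.15, 0.719 and 0.948 CPM in TGF-β1. Every TGF-β1 culture lay below every CTL culture, and the pair of replicate 2 held both the highest and the lowest value. The means were 2.76 ± 0.796 and 0.940 ± 0.217 CPM (SD, n = 3 each), from 59 to 119 counts per CTL library and 22 to 36 per TGF-β1 library. *E2f7* had a log2 fold change of -1.55 (SE 0.29, edgeR adjusted p = 0.0233), and the pairs gave -1.20, -2.33 and -1.10. Without both replicate 2 cultures it was -1.16 (adjusted p = 0.0330). When single cultures were left out, the value stayed between -1.73 and -1.31, and the adjusted p from edgeR exceeded 0.05 without CTL replicate 1 (0.0937), TGF-β1 replicate 1 (0.0692), TGF-β1 replicate 2 (0.0562) or TGF-β1 replicate 3 (0.0671).

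*E2f8* had 2.83, 3.22 and 3.13 CPM in CTL and 3.37, 3.86 and 3.59 CPM in TGF-β1. All 3 TGF-β1 values exceeded all 3 CTL values by a narrow margin, with pair log2 ratios of 0.25, 0.26 and 0.20. Its log2 fold change of 0.23 (SE 0.13) did not pass (edgeR adjusted p = 0.284, 0.178 with the block). The ratio of *E2f7* to *E2f8* within each library, per kb of exon, had a log2 value of -0.91 ± 0.40 in CTL and -2.69 ± 0.44 in TGF-β1 (SD, n = 3 each), and the groups did not overlap. The difference was -1.78, with a two-sided exact permutation p of 0.1, the smallest that 3 against 3 allows, and 0.3 after adjustment over the 6 ratios compared.

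The pocket proteins bind E2Fs and silence their targets. Rb1 binds mainly the activator E2Fs, while Rbl1 pairs mainly with E2f4 and is itself made as cells enter S phase. *Rb1* (ENSMUSG00000022105.6, chromosome 14, 73183673 to 73325822, minus strand) measured 70.6, 71.9 and 60.3 CPM in CTL and 69.8, 76.0 and 66.1 CPM in TGF-β1. The groups overlapped, and the log2 fold change was 0.06 (SE 0.09, edgeR adjusted p = 0.681). *Rbl1* (ENSMUSG00000027641.12, chromosome 2, 157145893 to 157204534, minus strand) measured 16.2, 16.3 and 17.4 CPM in CTL and 13.4, 10.8 and 14.3 CPM in TGF-β1. Its groups did not overlap, and replicate 2 had the lowest TGF-β1 value. *Rbl1* had a log2 fold change of -0.37 (SE 0.12), which did not pass without the block (adjusted p = 0.0957) and passed with it (-0.38, SE 0.09, edgeR adjusted p = 0.0116). The pair log2 ratios were -0.27, -0.59 and -0.28, and without both replicate 2 cultures the value was -0.27 (adjusted p = 0.104, 0.0274 with the block). It did not pass with the block without both replicate 1 cultures (-0.43, adjusted p = 0.0544). The log2 ratio of *Rb1* to *Rbl1* per kb was higher with TGF-β1 in each pair, by 0.25, 0.67 and 0.41, with group means of 2.01 ± 0.20 in CTL and 2.46 ± 0.31 in TGF-β1 (SD, n = 3 each, two-sided exact permutation p = 0.1, adjusted p = 0.3).

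The D cyclins answer growth factors and are the first cyclins of G1. *Ccnd1* (ENSMUSG00000070348.4, chromosome 7, 144929931 to 144939925, minus strand) had 255, 268 and 304 CPM in CTL and 115, 124 and 170 CPM in TGF-β1. Each TGF-β1 culture lay far below the lowest CTL culture, and replicate 3 was the highest in both groups. Means were 276 ± 25.4 and 136 ± 29.5 CPM (SD, n = 3 each). The log2 fold change of *Ccnd1* was -1.02 (SE 0.16, edgeR adjusted p = 0.0166), and -1.04 with the block (SE 0.06, adjusted p = 2.9e-05). Pair log2 ratios were -1.15, -1.12 and -0.84, and the value without both replicate 2 cultures was -0.97 (adjusted p = 0.0369). The adjusted p exceeded 0.05 without CTL replicate 1 (0.0674) or TGF-β1 replicate 1 (0.0619), with log2 fold changes of -1.07 and -0.91.

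*Ccnd2* (ENSMUSG00000000184.11, chromosome 6, 127125162 to 127152193, minus strand) had the highest level per kb of the members. It stood at 832, 1193 and 839 CPM in CTL and 648, 970 and 716 CPM in TGF-β1. Replicate 2 was the highest in both groups, so the groups overlapped, yet the TGF-β1 culture was lower in each pair, by log2 ratios of -0.36, -0.30 and -0.23. Without the block the log2 fold change of -0.30 (SE 0.21) did not pass (adjusted p = 0.411). With the block it was -0.30 with an SE of 0.05 and passed (edgeR adjusted p = 0.00309). Without both replicate 2 cultures it was -0.29 and passed also without the block (adjusted p = 0.0481), while with the block it did not pass without both replicate 1 cultures (-0.26, adjusted p = 0.0954). The log2 ratio of *Ccnd1* to *Ccnd2* per kb was lower with TGF-β1 in all 3 pairs, with differences of -0.79, -0.82 and -0.61, with group means of -0.78 ± 0.35 and -1.52 ± 0.45 (SD, n = 3 each). The ratio's groups overlapped, and the two-sided exact permutation p was 0.2 (adjusted p = 0.4).

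The E cyclins drive Cdk2 at the entry to S phase. *Ccne1* (ENSMUSG00000002068.15, chromosome 7, 38097984 to 38107534, minus strand) had 4.97, 5.89 and 5.61 CPM in CTL and 2.72, 3.89 and 3.59 CPM in TGF-β1, with no overlap. For *Ccne1* the log2 fold change was -0.69 (SE 0.17, edgeR adjusted p = 0.0482), close to the threshold, and -0.70 with the block (adjusted p = 0.00282). Leaving out any 1 of the 6 cultures ended the call without the block, with values of -0.80 to -0.55 and adjusted p of 0.0574 to 0.130, and without both replicate 2 cultures the adjusted p was 0.0513. Down-sampling all libraries to the smallest also ended it (-0.67, edgeR adjusted p = 0.0743), with 2 members then called.

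*Ccne2* (ENSMUSG00000028212.15, chromosome 4, 11191351 to 11204779, plus strand) had 4.36, 5.40 and 3.51 CPM in CTL and 2.66, 2.97 and 2.84 CPM in TGF-β1. The TGF-β1 values were tightly grouped below all CTL values, of which replicate 2 was the highest. For *Ccne2* the log2 fold change was -0.65 (SE 0.18), which did not pass without the block (adjusted p = 0.0739) and passed with it (-0.63, edgeR adjusted p = 0.0115). DESeq2 gave an adjusted p of 0.0385. With the block it did not pass without both replicate 1 cultures (-0.59, adjusted p = 0.103) and passed without both replicate 2 cultures (-0.51, adjusted p = 0.0451). The log2 ratio of *Ccne1* to *Ccne2* per kb was 0.72 ± 0.30 in CTL and 0.64 ± 0.19 in TGF-β1 (SD, n = 3 each), and the groups overlapped (two-sided exact permutation p = 0.8, adjusted p = 0.96).

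**Figure D3:**
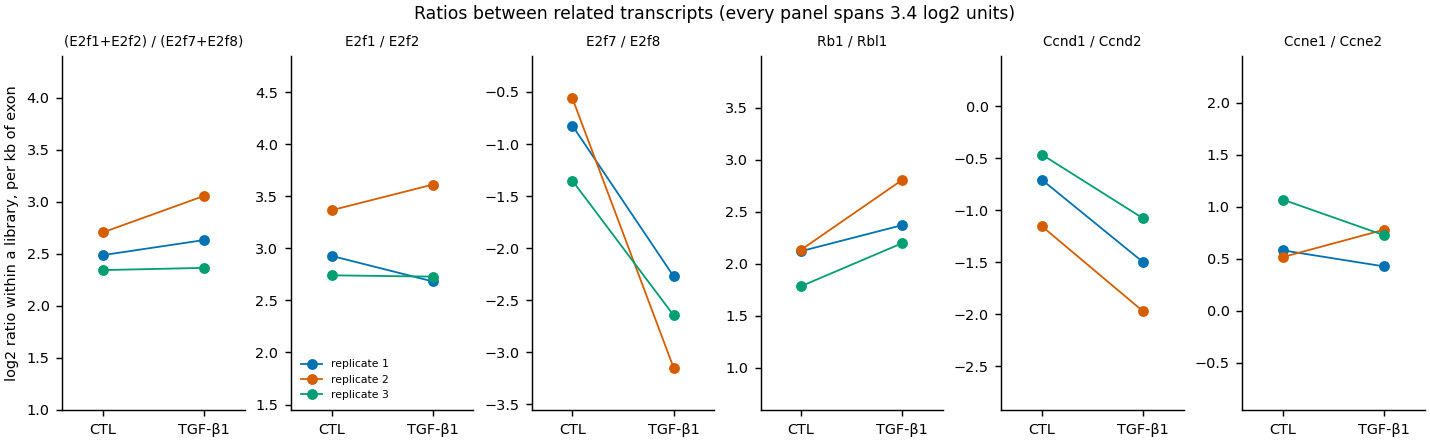
Log2 ratio of transcript levels per kb of exon within each library (y axis, 3.4 log2 units in every panel) in CTL and TGF-β1 cultures (x axis), joined by replicate number. The *E2f7* to *E2f8* ratio was lower with TGF-β1 in all 3 pairs with no overlap, the *Rb1* to *Rbl1* ratio higher in all 3 with no overlap, and the *Ccnd1* to *Ccnd2* ratio lower in all 3 with overlap.

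Per kb of exon, which allows levels to be set side by side between genes, the members spanned a wide range. Mean TMM-scaled CPM per kb in CTL was 101 ± 21.9 for *Ccnd2*, 58.5 ± 5.40 for *Ccnd1* and 11.2 ± 1.06 for *Rb1* (SD, n = 3 each). The D cyclins and *Rb1* thus headed the order, and the E2Fs and E cyclins were far below. *E2f1* followed at 4.49 ± 1.24, then *Rbl1* at 2.77 ± 0.115, *Ccne1* at 2.06 ± 0.177 and *Ccne2* at 1.27 ± 0.271. *E2f8* at 0.562 ± 0.0368, *E2f2* at 0.544 ± 0.0243 and *E2f7* at 0.307 ± 0.0884 were lowest. The order was the same in TGF-β1, where *E2f7* was at 0.104 ± 0.0241. *E2f8* and *E2f2* were the only neighbours whose cultures overlapped, in both groups. *E2f1* was well above *E2f2* in every library, with a log2 ratio of 3.01 ± 0.32 in CTL and 3.01 ± 0.52 in TGF-β1 (SD, n = 3 each). The summed activators *E2f1* and *E2f2* exceeded the summed atypical *E2f7* and *E2f8* by log2 ratios of 2.51 ± 0.18 and 2.68 ± 0.35 (difference 0.17, two-sided exact permutation p = 0.6, adjusted p = 0.9).

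**Figure D4:**
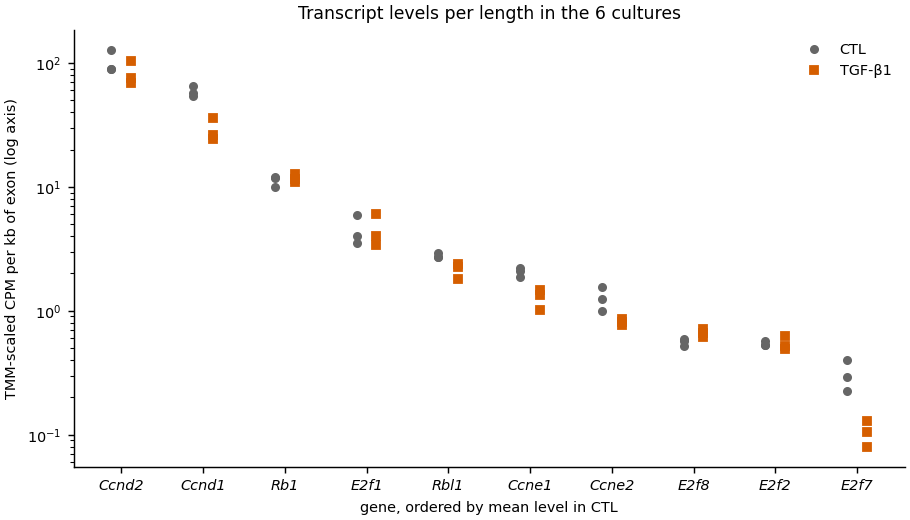
TMM-scaled CPM per kb of exon (y axis, log scale) for the 10 genes (x axis, ordered by CTL mean), with 1 point per culture. *Ccnd2* and *Ccnd1* lie at the top, *E2f8* and *E2f2* lie level with each other, and *E2f7* is lowest in both groups.

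Exons of several members overlap genes on the opposite strand, and the strand setting of the counting is not given in the sources used here. *Ccnd1* shares 1100 bases with LTO1, *Ccne2* shares 609 with *Ints8*, and *Rb1* shares 408 with *Lpar6* and 488 with *Rcbtb2*. Reads in these bases could be dropped as ambiguous or counted for either gene, and the levels per kb of these 3 members carry that limit. Antisense partners of *E2f7*, *E2f8* and *Ccnd2* had at most 5 counts in any library.

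The activators act beside further E2Fs and their DP partners. Of 6 E2F and DP genes, 0 passed without the block in either direction, and with it *E2f3* and *E2f4* were higher and *Tfdp1* lower. Over all genes tested, 6.69% were lower and 5.00% higher without the block, and 19.1% and 15.1% with it. *E2f3*, the third activator, had 38.9, 39.0 and 39.6 CPM in CTL and 46.8, 48.1 and 43.0 CPM in TGF-β1, or 0.23 on the log2 scale (SE 0.06, edgeR adjusted p = 0.0505, 0.0128 with the block). *E2f4*, the main E2F partner of Rbl1, was at 0.20 (adjusted p = 0.167, 0.0323 with the block), and *Tfdp1*, a dimer partner, was at -0.17 (adjusted p = 0.0863, 0.0168 with the block). *Tfdp2*, the list's gene of highest CPM, was at -0.23 (adjusted p = 0.239). The list's median was -0.14.

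The MuvB proteins form the DREAM complex with Rbl1 or Rbl2 in arrest, and join Mybl2 and Foxm1 in dividing cells. Of these 8 genes, 1 was called lower and 0 higher, against 6.69% and 5.00% of all genes tested. With the block 2 were lower and 1 higher, against 19.1% and 15.1%. *Foxm1*, which drives G2/M genes, fell from 10.6, 12.4 and 8.81 CPM to 5.96, 6.44 and 6.22 CPM (log2 fold change -0.77, SE 0.14, edgeR adjusted p = 0.0225). It did not pass without CTL replicate 1, TGF-β1 replicate 1 or TGF-β1 replicate 3, where its adjusted p reached at most 0.102. *Mybl2*, itself an E2F target, was at -0.83 (adjusted p = 0.0507, 0.0113 with the block), and the MuvB subunit *Lin37* was at 0.22 (adjusted p = 0.167, 0.0445 with the block). *Rbbp4*, a histone-binding subunit and the list's gene of highest CPM, was at 0.07 (adjusted p = 0.370), with the sign reversed when libraries were scaled by total alone.

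Among 8 G1 kinases and activators, *Cdk6* was the only one called, where 6.69% of all genes tested were called lower and 5.00% higher. *Cdk6* fell from 302, 277 and 318 CPM to 231, 211 and 253 CPM, with no overlap (log2 fold change -0.37, SE 0.09, edgeR adjusted p = 0.0441). Leaving out any 1 culture took its adjusted p to between 0.0516 and 0.163. *Ccnd3*, the remaining D cyclin, was at -0.30 (adjusted p = 0.201, 0.00173 with the block), and *Cdk4*, which had the highest mean CPM, was at 0.12 (adjusted p = 0.294). The list's median was -0.0038.

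CDK inhibitors moved in both directions. Of 7, 2 were called higher and 0 lower, against 5.00% and 6.69% of all genes tested. With the block 4 were higher and 2 lower, against 15.1% and 19.1%. *Cdkn2b* (p15, which blocks Cdk4 and Cdk6) rose from 108, 105 and 124 CPM to 191, 212 and 204 CPM, with no overlap. On the log2 scale the rise was 0.85 (SE 0.08, edgeR adjusted p = 0.00379), and it passed whichever culture was left out. *Cdkn2a*, named here after its values were seen, was at 0.42 (adjusted p = 0.0441). *Cdkn1a* (p21, which binds cyclin-Cdk2), the inhibitor of highest CPM, was higher in each TGF-β1 culture, at 1195, 1558 and 1123 CPM against 898, 1046 and 910. Its log2 fold change of 0.44 did not pass in edgeR without the block (adjusted p = 0.0966) but did with it (0.00141), in DESeq2 (0.0244) and without both replicate 2 cultures (0.0224). *Cdkn1c* was at 0.44 (edgeR adjusted p = 0.151, 0.0439 with the block). *Cdkn2c*, an E2F-regulated inhibitor, was at -0.82 (adjusted p = 0.183, 0.00125 with the block). *Cdkn2d*, also named after its values were seen, was at -0.42 (adjusted p = 0.118, 0.00778 with the block).

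The list for turnover of G1 cyclins held 10 genes, of which *Skp1* was not matched by symbol in the annotation. Of the other 9, 1 was called higher and 0 lower, against 5.00% and 6.69% of all genes tested. With the block 3 were higher and 0 lower, against 15.1% and 19.1%. *Fbxw7*, the ubiquitin ligase subunit that recognises cyclin E, rose from 47.8, 45.5 and 46.7 CPM to 63.3, 66.5 and 64.4 CPM (log2 fold change 0.47, SE 0.05, edgeR adjusted p = 0.00436). It passed whichever culture was left out. *Cks1b*, a cofactor of the Skp2 ligase, was at 0.27 (adjusted p = 0.0853, 0.0192 with the block). *Cul3*, which had the highest CPM, was at 0.13 (adjusted p = 0.106, 0.0416 with the block).

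Genes that E2Fs activate for S phase include replication factors and nucleotide enzymes. Of 30 such genes, 10 were called lower and 0 higher (1 at an unadjusted p under 0.05), 25 had a negative log2 fold change and the median was -0.48. Over all genes tested, 6.69% were lower and 5.00% higher, and 19.1% and 15.1% with the block. With the block 18 of the 30 were lower, and *Tyms*, named after its values were seen, was higher at 0.24 (adjusted p = 0.0417 with the block). *Mcm10*, a replication initiator, had 2.32, 2.18 and 1.41 CPM in CTL and 0.769, 0.425 and 0.652 CPM in TGF-β1 (log2 fold change -1.67, SE 0.30, edgeR adjusted p = 0.0218). *Cdc6*, which loads the Mcm helicase, was at -1.64 (adjusted p = 0.0146), *Fbxo5*, an inhibitor of the APC/C ligase, at -1.23 (adjusted p = 0.0177) and *Uhrf1*, which maintains DNA methylation, at -0.96 (adjusted p = 0.00683). *Rrm1*, which had the highest CPM, followed replicate 2 (125 CPM in CTL and 81.3 CPM in TGF-β1 replicate 2, 59.2 to 74.9 elsewhere) and was at -0.33 (adjusted p = 0.499). The count of genes called lower fell to 1 without CTL replicate 1 or TGF-β1 replicate 1, to 4 without CTL replicate 2, and to 5 without TGF-β1 replicate 2 or TGF-β1 replicate 3, and it was 6 without both replicate 2 cultures.

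G2 and M phase genes had the lowest median of the 7 lists. Of 13, 11 were called lower and 0 higher (0 at an unadjusted p under 0.05, and 0 called by DESeq2 or limma-voom), all 13 were negative and the median was -1.79. Over all genes tested, 6.69% were called lower and 5.00% higher. *Mki67*, the proliferation antigen, fell from 13.2, 16.5 and 9.33 CPM to 2.69, 1.80 and 2.99 CPM (log2 fold change -2.38, SE 0.28, edgeR adjusted p = 0.00787). *Ccna2* was at -2.28 (adjusted p = 0.00379), *Top2a*, which untangles sister chromatids, at -2.14 (adjusted p = 0.00698) and *Ccnb2*, a mitotic cyclin, at -2.06 (adjusted p = 0.00712). The log2 fold changes of *E2f1*, *E2f2* and *Rb1*, none of which passed, stand beside these falls. The count of lower genes was 6 without CTL replicate 1 or TGF-β1 replicate 1, and 10 without both replicate 2 cultures.

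**Figure D5:**
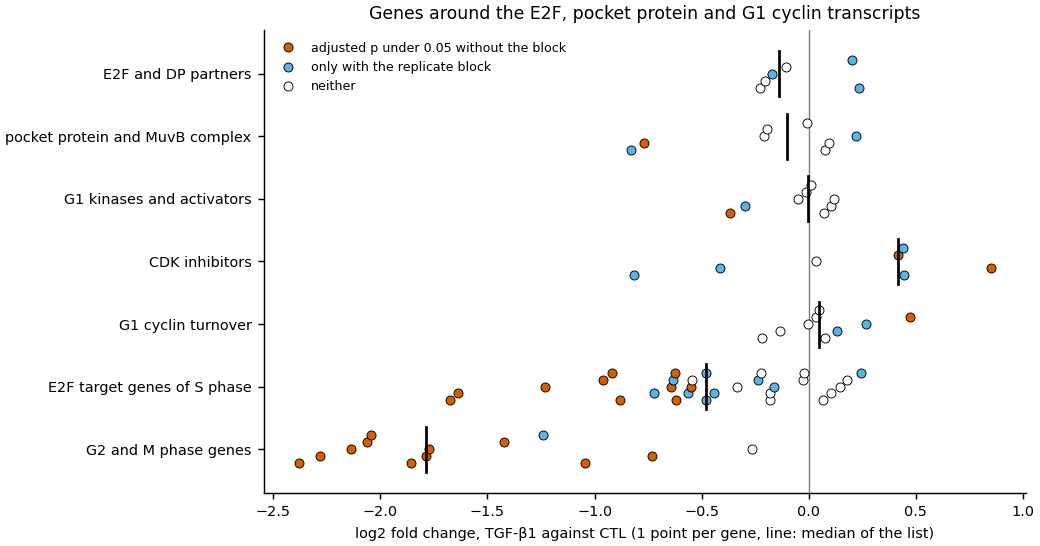
Log2 fold change of TGF-β1 against CTL (x axis) for every tested gene of 7 lists (y axis), with 1 point per gene and a line at each list's median. Orange points passed without the replicate block, blue points with it alone, and white points in neither fit. G2 and M phase genes centre on -1.79 and S-phase targets on -0.48, while the E2F, pocket protein and kinase lists centre on -0.14, -0.10 and -0.0038.

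Markers of cell types moved with TGF-β1 in part. The shares called over all genes tested were 6.69% lower and 5.00% higher, and 19.1% and 15.1% with the block. Of 6 tubule epithelium markers 2 were called lower, *Cdh16* and *Pax8*, with summed levels of 959 to 2551 CPM in CTL and 839 to 2107 in TGF-β1, and the block added *Epcam* (adjusted p = 0.0376) and *Cdh1* (0.0195). Of 4 tested proximal tubule markers 2 were called lower, *Lrp2* and *Aqp1*, with sums of 77.6 to 93.5 and 35.7 to 49.5 CPM, and the block added *Hnf4a* (adjusted p = 0.00448). Collecting duct markers summed to 5.33 to 7.56 and 1.63 to 3.78 CPM, with *Aqp2* at most 0.172, and those of the thick ascending limb and distal tubule to 1.18 to 3.06 and 1.37 to 1.86 CPM. Neither list had a call without the block, and with it *Gata3* (adjusted p = 0.00184) and *Scnn1g* (0.00845) of the collecting duct and *Umod* (0.0446) of the thick ascending limb were lower. Of 6 tested fibroblast markers 0 were called in either direction without the block, with sums of 1256 to 2445 and 1480 to 2804 CPM, and *Col1a1* and *Postn* were abundant in all cultures. With the block *Pdgfrb* (log2 fold change -0.86, adjusted p = 0.000431) and *Dcn* (-1.21, 0.0256) were lower, and *Col1a1* (0.37, 0.00629) and *Postn* (0.47, 0.00171) were higher. Endothelial markers summed to 0.823 to 2.25 and 0.889 to 2.58 CPM and leukocyte markers to 5.82 to 18.9 and 6.77 to 19.2 CPM, with 0 called. The part of these markers in the falls of *Ccnd1*, *Ccne1* and *E2f7* was not tested.

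The members' mean z score was 0.15, 0.91 and -0.0061 in CTL replicates 1, 2 and 3 and -0.44, -0.14 and -0.48 in TGF-β1. Over the 6 cultures, the 5 genes among 10904 with at least 5 CPM whose log2 CPM followed this mean most closely were *Arhgap1* (r = 0.996), *Rai14* (0.994), *Myh10* (0.992), *2310022B05Rik* (0.992) and *Fcgrt* (0.991). The points share libraries and replicate numbers, so these values only describe likeness. These genes were chosen for following a mean that was lower with TGF-β1, so their negative log2 fold changes follow from the choice. That mean was also highest in replicate 2 of each group, which shapes their calls with and without the block. None of the 5 passed without the block, where their edgeR adjusted p ran from 0.0722 to 0.216, and all 5 passed with it (0.00396 to 0.0425).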

How the data were processed

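RNA sequencing was analysed for 3 CTL and 3 TGF-β1 cultures of RTECs, grouped and numbered by their labels. The authors trimmed reads (Trim Galore), aligned them to GRCm38 with STAR 2.4.1d and counted them on genes with HTSeq 0.6.1, per the submitters' processing notes. The deposited values are raw read counts per gene, without normalization. Reads aligned to more than 1 place (18.7 to 19.4% of each library's reads) and reads on more than 1 gene (1.88 to 1.97%) are tallied in 5 summary rows, which were left out. The annotation release and strand setting are not given in the sources used here. The age of the mice in the paper differs from that in the labels, which is used here, and the series' design text speaks of treated mice where the protocol describes treated cells.

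GENCODE M21 on GRCm38 gave symbols for 46005 of 46517 genes, with positions and union exon lengths. Promoter windows came from RefSeq (GRCm38.p6). The tests were run in edgeR 4.0.16 under R 4.3.3 (filterByExpr by group, TMM, glmQLFit robust, glmQLFTest, two-sided, Benjamini-Hochberg over 15862 genes, threshold 0.05). CPM are TMM-scaled. Standard errors came from the F statistic. The design had no block, since the study's methods name no pairing. Replicate numbers paired the cultures all the same: deviations from group means over 15862 genes had correlations of 0.445, 0.738 and 0.648 for the 3 same-numbered pairs, against -0.688 to 0.289 for other pairs. Within-library ratios used two-sided exact permutation tests, which leave the replicate number out. Sign-flip tests over the 3 same-numbered pairs cannot give p under 0.25. They gave 0.25 for activator to atypical E2F, *E2f7* to *E2f8*, *Rb1* to *Rbl1* and *Ccnd1* to *Ccnd2*. They gave larger p for *E2f1* to *E2f2* and *Ccne1* to *Ccne2*. Alternatives were the replicate block, DESeq2 1.42.0, limma-voom (limma 3.58.1), RLE or total-count scaling, other count filters, down-sampling, a threshold of 0.01, and leaving out cultures singly or by replicate number. Models were tested on simulated data. Figures used matplotlib 3.10.9.

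The members, gene lists, markers and motifs were chosen with earlier results of these data known. Named genes were the 10 members, up to 4 genes of each list called in either fit with the largest absolute log2 fold change, the list gene of highest mean CPM, and the 5 genes most like the members' mean z score.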

Additional observations from a re-analysis of the deposited data

How the results depend on the processing

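The labels number the cultures but state no pairing. Blocking on the replicate number gave 3037 genes lower and 2388 higher, 6 members lower, and 18 S-phase targets lower with 1 higher. It changed no called direction. Leaving out both cultures of a replicate number gave 0 genes lower and 0 higher for replicate 1 without the block (1182 and 756 at an unadjusted p under 0.05 in edgeR), with 0 members (3 unadjusted), 0 S-phase targets (12 unadjusted) and 0 G2/M genes (11 unadjusted) lower, and with the block 1649 genes, 3 members (*Rbl1*, *Ccnd2* and *Ccne2* lost their calls) and 9 S-phase targets lower. For replicate 2 there were 1290 genes lower, 1084 higher and 6 S-phase targets lower without the block, and with it 2718 genes lower, 2288 higher, 6 members lower and 1 S-phase target higher. For replicate 3 there were 190 genes lower, 95 higher, 1 member, 2 S-phase targets and 4 G2/M genes lower without the block, and with it 3258 genes lower, 2583 higher, 6 members and 20 S-phase targets lower and 1 higher. The threshold of 0.01 left 192 genes lower, 127 higher, 0 members (5 at an unadjusted p under 0.05 in edgeR), 1 S-phase target and 6 G2/M genes lower. DESeq2 called 1201 genes higher, and scaling by total alone 507. Apart from construction (fewer cultures, a stricter threshold), the cause was not tested.

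Leaving out 1 culture gave 186 to 807 genes lower and 109 to 516 higher, 0 to 3 members, 1 to 7 S-phase targets and 6 to 12 G2/M genes lower. No member was called lower without CTL replicate 1 or TGF-β1 replicate 1 (5 at an unadjusted p under 0.05 in edgeR each). Log2 ratio differences ran from -0.013 to 0.33 for activator to atypical E2F, -0.31 to 0.17 for *E2f1* to *E2f2*, -2.00 to -1.55 for *E2f7* to *E2f8*, 0.27 to 0.58 for *Rb1* to *Rbl1*, -0.96 to -0.51 for *Ccnd1* to *Ccnd2* and -0.18 to 0.095 for *Ccne1* to *Ccne2*.

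Signs turned for 5 genes, of which *E2f1*, *E2f2*, *Rb1* and *Rbbp4* passed in no setting and *Rrm1* in 1, without replicate 3 of both groups with the block (-0.42). *E2f1* was at 0.0044 in DESeq2, 0.0035 with RLE, 0.0053 without a filter, 0.0051 without replicate 1 and 0.020 without replicate 3 of both groups (the latter 0.017 with the block), and between -0.28 and 0.25 without 1 culture. *E2f2* was at -0.0049 in limma-voom, -0.070 by total alone, -0.0014 with at least 10 counts in every sample, -0.12 without replicate 1 of both groups with or without the block (0.10 without replicate 2), and -0.10 to 0.061 without 1 culture. *Rb1* was at -0.011 by total alone and -0.012 to 0.11 without 1 culture, *Rbbp4* at -0.00076 by total alone, and *Rrm1* at -0.54 to 0.030 without 1 culture. Depth limits low genes such as *E2f7*, with 22 to 119 counts per library, and *Ccne1* did not pass after down-sampling to the smallest library (edgeR adjusted p = 0.0743).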
